A study of Rattus norvegicus with 12 samples.

Results

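Aminoacyl-tRNA synthetases and the target genes of Atf4 were followed in the rat ventral prostate across 4 hormonal states. The genes were taken by symbol, in a choice made with earlier results of these data known: every array feature whose single annotated symbol names a synthetase (such as Aars1, Farsb or Hars2), together with Atf4 and a short list of its known targets. For each gene the probe set with the highest mean over the 12 arrays was used. This gave 40 genes out of 14506 measured: 19 cytosolic synthetases, 11 mitochondrial synthetases, and Atf4 with 9 targets. Sesn2, also named by the rule, had no probe set annotated with that symbol alone and so was not among the genes measured. Of the 40, 37 had 1 probe set and 3 had several (Hars1, Mthfd2 and Psat1).

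The tissue came from male Wistar rats aged 90 days at treatment, with 3 arrays per group, collected 3 days after treatment. The castrated group lost the testes under anaesthesia with 2 drugs, ketamine at 150 mg/kg together with xylazine at 10 mg/kg. The estradiol group kept its testes and was dosed once with 17β-estradiol in corn oil (25 mg/kg). The combined group had the surgery, the anaesthesia and the same estradiol dose, and the intact control group had corn oil only. The labels give no vehicle for the castrated group and no sham surgery for any group, so loss of the testes cannot be told apart from the operation or the drugs given for it. Which animals lie behind which array is not stated, and p-values therefore reflect only how far these samples differ, some of which may be technical.

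An aminoacyl-tRNA synthetase joins an amino acid to its transfer RNA, the step that feeds the ribosome. One set of enzymes works in the cytosol, where several sit together in the multisynthetase complex. A largely separate set, mostly marked by a symbol ending in 2, works in mitochondria. The classes here go by symbol, and a gene that serves both places is counted as cytosolic. Atf4 is a transcription factor made when the initiation factor eIF2 is phosphorylated, as happens on lack of amino acids or misfolded protein. It then switches on genes that make, import and charge amino acids. The ventral prostate secretes protein in bulk under androgen, so its cells use amino acids heavily.

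The levels are the authors' deposited values, 1 per probe set and array, taken as log2, so a difference of 1 is a 2-fold change. Estradiol arrays 1 and 2 stood apart: the SD over all probe sets was 1.93 and 2.01 on these 2 arrays, against 2.24 to 2.30 on the other arrays. Results that rest on them are also given without them, in a fit that takes the spread of the estradiol group, then a single array, from the other groups. The prostate label was borne out by high levels of the secreted protein probasin in controls (Pbsn, 10.50, 11.47 and 11.63). Pbsn was at 4.96, 4.37 and 4.54 after castration, 6.28, 4.82 and 9.71 with estradiol and 5.31, 7.45 and 4.88 with both. Estradiol results without arrays 1 and 2 rest on array 3, the treated array with the highest Pbsn. The array quality weights used in an alternative fit below were 0.09, 0.69 and 0.19 for estradiol arrays 1, 2 and 3. By these weights array 3 was rated below array 2, so leaving out arrays 1 and 2 does not keep the best-rated estradiol array. In whole tissue, fewer cells of a type and less RNA per cell cannot be told apart. Macrophage markers moved with treatment: the mean log2 level over 11 of them was 8.23 to 8.77 on castrated arrays, 7.22 to 8.39 on estradiol arrays and 7.84 to 8.35 on combined arrays, against 6.52 to 7.02 on control arrays. The mean over 8 secretory and luminal markers was 9.96 to 10.28, 9.65 to 10.52 and 10.18 to 10.31 in the same treated groups, against 10.37 to 10.55 in controls. These 8 went both ways: Pbsn differed by -6.57 and Andpro by -1.88 after castration, while Azgp1, Krt8, Krt18 and Epcam rose, and the median difference of the 8 was 0.56. With estradiol 2 fell and 2 rose, and with both treatments 1 fell and 4 rose. The part of these shifts in the results below was not tested.

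The upstream sequences of the genes are shown because Atf4 binds a composite element with C/EBP proteins, of which TGATGCAA is the usual core. RefSeq promoter sequences (build GRCr8) were found for 38 of the 40 genes, and the 250 bases before each start site were searched on both strands. The core, read as TGATGCAA or as its complement TTGCATCA, occurred in the window of 6 of the 38 genes, and in 0.693% of all 33469 promoter windows. These 6 were 5 cytosolic synthetases (Aars1, Iars1, Mars1, Nars1 and Tars1) and Chac1. No mitochondrial synthetase of 11 held it. With any base allowed at one position (TGATGNAA, or TTNCATCA on the other strand, a pattern that includes the core), Trib3 was added, and 3.4% of all windows held that form. In the sequences below, 5′ to 3′ on the gene's strand, capitals mark the match, and the last base shown of Iars1, Mars1, Nars1, Tars1 and Trib3 is the one just before the start site.
Aars1, chr19:55908344-55908403, plus strand: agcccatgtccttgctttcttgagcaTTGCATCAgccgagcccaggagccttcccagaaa
Chac1, chr3:126795938-126795997, plus strand: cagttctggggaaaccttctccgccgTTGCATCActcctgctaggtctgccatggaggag
Iars1, chr17:15193653-15193702, minus strand: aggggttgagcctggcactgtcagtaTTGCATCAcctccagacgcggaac
Mars1, chr7:65023754-65023796, minus strand: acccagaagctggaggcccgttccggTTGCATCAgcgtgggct
Nars1, chr18:60275783-60275822, minus strand: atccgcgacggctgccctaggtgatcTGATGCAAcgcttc
Tars1, chr2:62114803-62114855, minus strand: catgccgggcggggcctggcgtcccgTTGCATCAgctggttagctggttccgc
Trib3, chr3:161275534-161275580, minus strand: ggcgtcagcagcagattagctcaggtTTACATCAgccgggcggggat
The serine and folate enzymes described next, Psat1, Mthfd2, Psph and Phgdh, had neither form in this window. Psat1 had the largest differences of the 40, and the 250 bases before its start site are shown whole for comparison, with nothing in capitals. This window lies inside the annotated extent of Psat1 (222623553 to 222646187), so sequence before the whole gene was not searched. The stretches shown for Aars1, Iars1 and Mars1 also lie inside the annotated extents of their genes.
Psat1, chr1:222645409-222645658, minus strand: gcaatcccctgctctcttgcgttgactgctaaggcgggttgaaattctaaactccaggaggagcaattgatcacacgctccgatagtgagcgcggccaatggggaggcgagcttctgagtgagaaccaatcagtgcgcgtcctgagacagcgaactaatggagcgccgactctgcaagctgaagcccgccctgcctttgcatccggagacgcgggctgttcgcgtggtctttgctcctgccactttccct
A match is a description of the letters and no sign of binding, and a window without one says nothing about the factor.

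Of the 40 genes, 5 fell after castration, 6 with estradiol and 5 with both treatments, and none rose (limma, Benjamini-Hochberg adjusted p under 0.05). Of all genes, 2.36%, 5.48% and 2.21% fell and 3.17%, 2.51% and 2.12% rose in these comparisons. Serine synthesis enzymes and the folate enzyme Mthfd2 made up most of the calls.

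Psat1 encodes phosphoserine aminotransferase, the second enzyme that makes serine from a glycolytic intermediate. Its levels were 6.20, 6.69 and 6.31 in castrated rats, 5.997, 5.71 and 6.81 in estradiol-treated rats and 6.43, 6.65 and 6.53 in rats with both treatments, against 7.97, 8.96 and 8.64 in controls. No treated array reached the lowest control. Psat1 fell in all 3 treated groups, with log2 differences from control of -2.12 after castration, -2.35 with estradiol and -1.99 with both (SE 0.28 each, n = 3 against 3), with limma adjusted p = 0.00063, 0.000336 and 0.00109. The 3 comparisons share the control arrays, so they are not independent of each other. The other probe set of Psat1, not used, differed by -0.86, -0.70 and -0.88 in the same order, in the same direction but less.

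Mthfd2 encodes the mitochondrial methylenetetrahydrofolate dehydrogenase that passes on the one-carbon unit released from serine. Its levels were 7.56, 7.71 and 7.38 in castrated rats, 7.39, 7.52 and 7.76 with estradiol and 7.64, 7.43 and 7.50 with both, against 8.40, 8.98 and 8.80 in controls. The 3 treated groups had nearly one level, and every treated array lay below every control. Mthfd2 fell by 1.18, 1.17 and 1.20 (SE 0.18 each) in castrated, estradiol-treated and combined-treated rats, with limma adjusted p = 0.00138, 0.00172 and 0.00125. Its other probe set differed by -1.29, -1.35 and -1.43. Psat1 and Mthfd2 passed in each comparison against control in all 21 alternatives of processing and array choice.

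Psph, the phosphatase that completes serine, had levels of 7.29, 7.37 and 7.32 after castration, 6.70, 7.25 and 7.24 with estradiol and 7.04, 7.32 and 7.25 with both. Controls had 7.94, 8.26 and 8.15, above every treated array. Psph fell by 0.79, 1.05 and 0.91 (SE 0.17 each) in castrated, estradiol and combined groups, with limma adjusted p = 0.0156, 0.00294 and 0.00734. Phgdh, which takes the first step of serine synthesis, had levels of 6.72, 6.56 and 6.72 after castration, 7.68, 6.51 and 7.26 with estradiol and 6.97, 7.04 and 6.80 with both. Controls had 7.66, 7.86 and 7.94. Castrated and combined arrays lay below all controls, while estradiol array 1 lay within the control range. Phgdh fell by 1.15 ± 0.23 after castration and by 0.89 ± 0.23 with both treatments (limma adjusted p = 0.0104 and 0.0493), and differed by -0.67 ± 0.23 with estradiol, which did not pass (adjusted p = 0.0847).

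Shmt2, the mitochondrial enzyme that splits serine and hands its carbon to Mthfd2, did not follow it. It differed by -0.07, -0.43 and -0.12 (SE 0.23 each) in castrated, estradiol and combined groups, with limma adjusted p from 0.213 to 0.973. Its castrated arrays spread from 7.79 to 8.58, around the controls at 8.20 to 8.38.

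**Figure D1:**
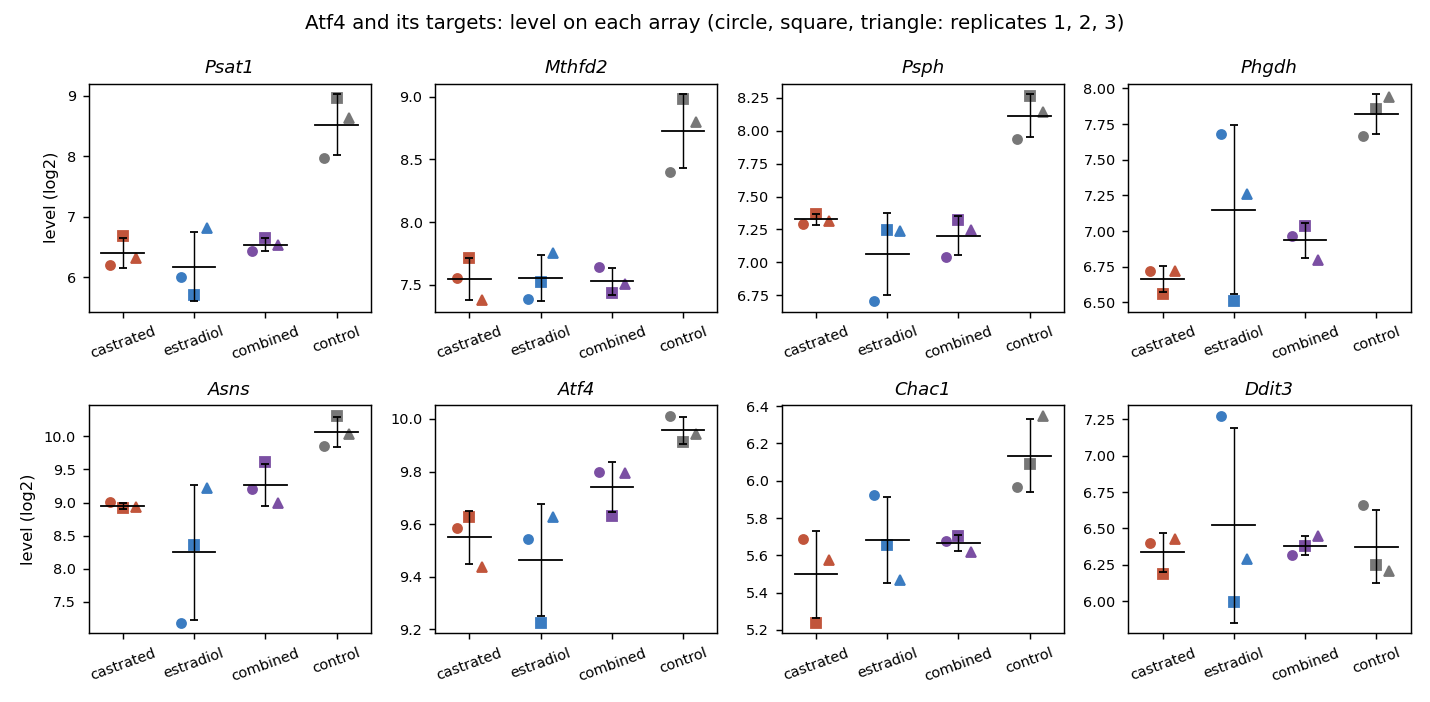
Log2 level (vertical axis) of 8 genes on each array, by treatment group; points are arrays, lines the mean and bars the SD of 3 arrays. Psat1, Mthfd2 and Psph have all treated arrays below all controls, Phgdh has estradiol array 1 among the controls, and Ddit3 shows no separation.

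Asns, asparagine synthetase, makes asparagine from aspartate and glutamine. It had levels of 9.002, 8.92 and 8.94 after castration, 7.18, 8.36 and 9.21 with estradiol and 9.20, 9.62 and 8.99 with both, against 9.86, 10.31 and 10.04 in controls. All treated arrays lay below the controls, but the estradiol arrays ranged over 2 log2 units. Asns fell by 1.82 ± 0.37 with estradiol (limma adjusted p = 0.0102), and differed by -1.12 ± 0.37 after castration and -0.80 ± 0.37 with both treatments (adjusted p = 0.109 and 0.335). The estradiol spread enters the error of all comparisons: without estradiol arrays 1 and 2, castration and the combined treatment had the same differences with adjusted p = 0.000866 and 0.00687, and the estradiol difference was -0.85 (adjusted p = 0.0578).

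Atf4 itself differed less than the serine enzymes. Its levels were 9.58, 9.63 and 9.44 after castration, 9.54, 9.22 and 9.63 with estradiol and 9.80, 9.63 and 9.79 with both, against 10.01, 9.91 and 9.94 in controls. Every treated array was below every control. The differences were -0.41, -0.49 and -0.22 (SE 0.15 each), none of which passed (limma adjusted p = 0.15, 0.0559 and 0.633). It passed in 3 of 21 alternatives after castration, among them the fit without estradiol arrays 1 and 2 (adjusted p = 0.0163), in 5 of 21 with estradiol and in none with both. The adjusted p of these alternatives ran from 0.00167 to 0.409, from 0.0105 to 0.312 and from 0.129 to 0.933. The protein is controlled mainly through translation of its messenger, which these arrays do not measure.

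The stress genes downstream of Atf4 did not move as a block. Chac1, a glutathione-degrading enzyme induced by Atf4, had levels of 5.68, 5.24 and 5.57 after castration, 5.93, 5.65 and 5.47 with estradiol and 5.68, 5.71 and 5.62 with both, against 5.96, 6.09 and 6.35 in controls. It fell by 0.64 ± 0.17 after castration (limma adjusted p = 0.0464), a call that held in 11 of 21 alternatives, with adjusted p from 0.000663 to 0.218. It differed by -0.45 and -0.47 with estradiol and both treatments (adjusted p = 0.106 and 0.181). Ddit3, the stress factor also called CHOP, had levels of 6.40, 6.18 and 6.42 after castration, 7.27, 5.99 and 6.29 with estradiol and 6.31, 6.38 and 6.45 with both, against 6.66, 6.25 and 6.21 in controls. Its groups overlapped, with differences of -0.04, 0.15 and 0.01 (SE 0.26 each). Trib3, a pseudokinase that restrains Atf4, had levels of 5.503, 5.28 and 5.33 after castration, 5.91, 5.13 and 5.39 with estradiol and 5.41, 5.35 and 5.13 with both, against 5.48, 5.42 and 5.42 in controls. It differed by -0.07, 0.04 and -0.14 (SE 0.18 each), and neither Ddit3 nor Trib3 had an adjusted p below 0.7. Trib3 lay below the array medians of 5.53 to 5.76 already in controls, so a fall of Trib3 could be missed.

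Of the 19 cytosolic synthetases, Wars1 and Aars1 were called. Wars1, tryptophanyl-tRNA synthetase, had levels of 9.19, 8.80 and 9.50 after castration, 7.51, 8.34 and 9.04 with estradiol and 9.31, 9.42 and 9.17 with both, against 10.12, 10.17 and 10.02 in controls. All treated arrays lay below the controls, and estradiol arrays 1 and 2 were the lowest. Wars1 fell by 1.81 ± 0.30 with estradiol (limma adjusted p = 0.00309), or by 1.06 without estradiol arrays 1 and 2 (adjusted p = 0.0217). It differed by -0.94 and -0.80 after castration and both treatments (adjusted p = 0.0932 and 0.187), and passed in both without those arrays (adjusted p = 0.00223 and 0.00599).

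Aars1, alanyl-tRNA synthetase, had levels of 8.25, 8.36 and 8.13 after castration, 8.35, 8.01 and 8.25 with estradiol and 8.24, 8.05 and 8.07 with both, against 8.67, 8.89 and 8.78 in controls. The treated arrays again lay below all controls. Aars1 fell by 0.58 ± 0.15 with estradiol and by 0.66 ± 0.15 with both (limma adjusted p = 0.0305 and 0.0197), and differed by -0.53 ± 0.15 after castration (adjusted p = 0.0502). The estradiol call of Aars1 held in 12 of 21 alternatives (adjusted p 0.0109 to 0.194) and ended without estradiol arrays 1 and 2 (adjusted p = 0.0728).

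The other cytosolic enzymes did not pass with all arrays in the fit. After castration 13 of the 19 had a difference below 0, with a median of -0.23, while the median of all genes was 0.01 and 48.4% of all genes were below 0. With estradiol 16 of 19 were below 0, with a median of -0.40 (all genes 0.07), and with both treatments 15 of 19, with a median of -0.23 (all genes 0.04). Cars1, the cysteinyl enzyme, differed by -0.68, -0.43 and -0.67 (SE 0.19 each) in castrated, estradiol and combined groups. Nars1, the asparaginyl enzyme, differed by -0.48, -0.54 and -0.47 (SE 0.18 each). Neither passed with all arrays, though these differences were about as large as those of Aars1, as was that of Iars1, the isoleucyl enzyme, with estradiol (-0.80, limma adjusted p = 0.0513). Without estradiol arrays 1 and 2, Cars1 fell in all 3 comparisons against control, Nars1 fell after castration and with both treatments, and the estradiol difference of Iars1 was -0.38 (adjusted p = 0.208).

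A few cytosolic enzymes lay on the other side of 0. Kars1, lysyl-tRNA synthetase, had 9.75, 9.79 and 9.86 after castration and 9.86, 9.84 and 9.69 with both treatments, all above the controls at 9.52, 9.53 and 9.51. Its difference was 0.28 ± 0.15 in each (limma adjusted p = 0.415 and 0.462). With estradiol Kars1 had 9.59, 9.37 and 9.88, on both sides of the controls, a difference of 0.09 (adjusted p = 0.672). Rars1, the arginyl enzyme, differed by 0.54, 0.48 and 0.24 (SE 0.23 each), and Vars1, the valyl enzyme, by 0.34, 0.31 and 0.37 (SE 0.16 each), in castrated, estradiol and combined groups. None of these passed (adjusted p at least 0.173). The 7 members of the multisynthetase complex (Eprs1, Iars1, Kars1, Lars1, Mars1, Qars1 and Rars1) had medians of -0.20, -0.39 and -0.23, and the 12 other cytosolic enzymes -0.33, -0.41 and -0.28.

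**Figure D2:**
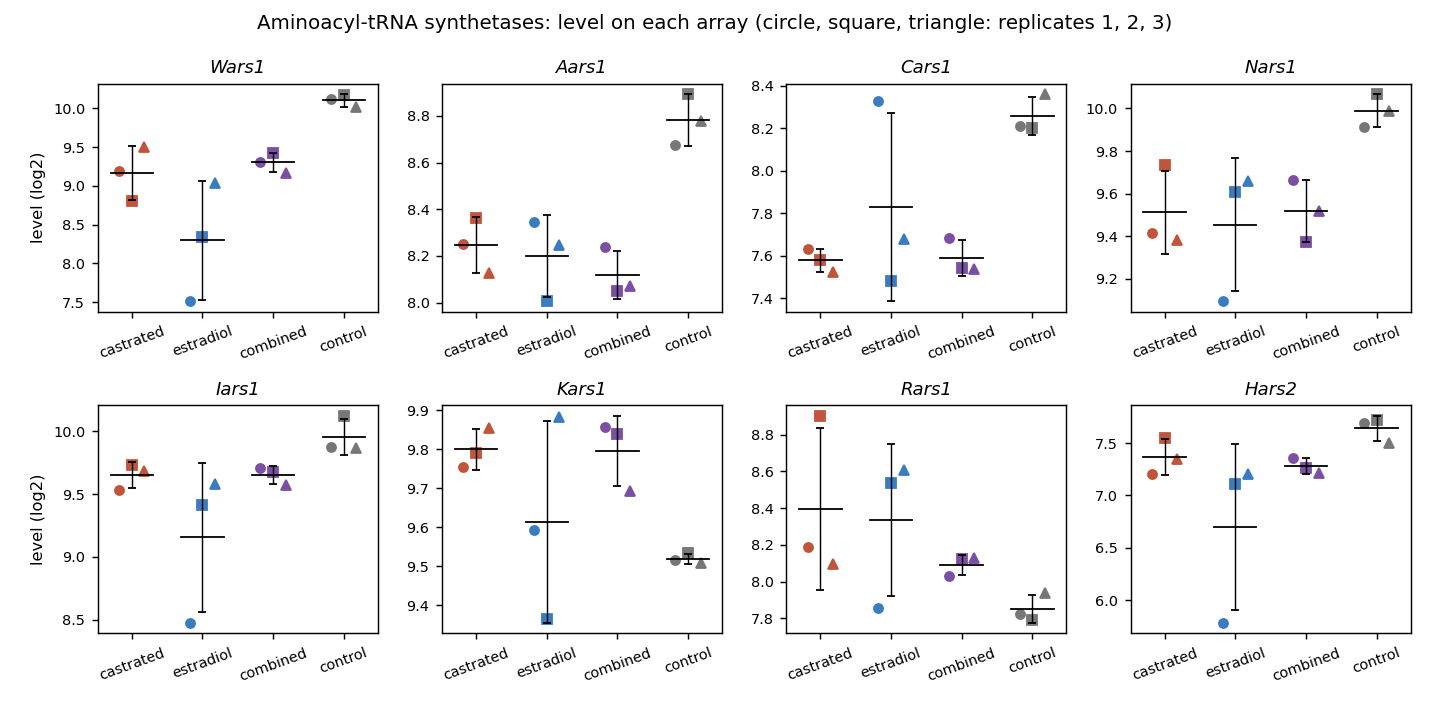
Log2 level (vertical axis) of 8 synthetases on each array, by treatment group; points are arrays, lines the mean and bars the SD of 3 arrays. Wars1, Aars1 and Nars1 have all treated arrays below the controls, Kars1 has castrated and combined arrays above them, and estradiol array 1 lies far below its group in Iars1 and Hars2.

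With all arrays in the fit, none of the 11 mitochondrial synthetases passed against control by limma. At an unadjusted p under 0.05 were 0, 2 and 1 for castration, estradiol and both treatments, where 16.1%, 30.2% and 14.7% of all genes were. With both treatments Yars2 differed by -0.47 and Lars2 by 0.34, and whether they passed depended on estradiol arrays 1 and 2. The median differences of the 11 were 0.10, 0.10 and 0.14. After castration 2 of 11 were below 0, against 13 of 19 cytosolic enzymes. The lowest was Hars2, mitochondrial histidyl-tRNA synthetase, at -0.94 ± 0.29 with estradiol (adjusted p = 0.0614), where array 1 had 5.78 and arrays 2 and 3 had 7.11 and 7.21. Controls had 7.70, 7.72 and 7.50. Without estradiol arrays 1 and 2 this difference was -0.44 (adjusted p = 0.169).

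**Figure D3:**
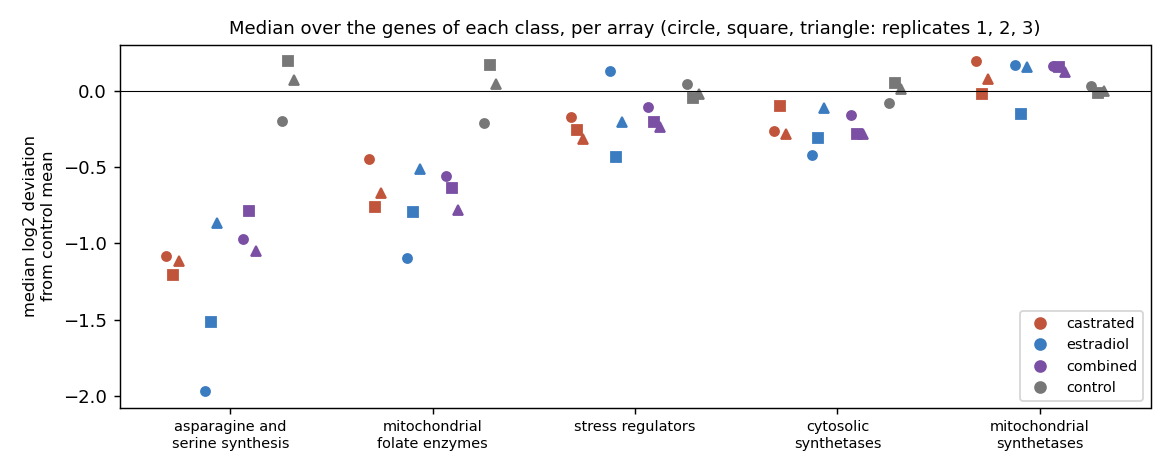
Median log2 deviation from the control mean over the genes of each class (vertical axis), 1 point per array, coloured by group. Asparagine and serine synthesis genes lie lowest, between -0.79 and -1.97 on treated arrays, and mitochondrial synthetases lie near 0, between -0.15 and 0.20.

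Counted over all 40 genes, 5 fell after castration and none rose by limma: Psat1, Mthfd2, Psph, Phgdh and Chac1. The median difference of the 40 was -0.21. Every castrated array lay above every control in 4 of the 40. The share of all genes in that direction is not given here, so this count cannot be read as particular to the 40. In 15 every castrated array was below every control, as in 13.7% of all genes. All 5 belong to the 10 genes of the Atf4 group. The count was 13 without estradiol arrays 1 and 2, where 6 cytosolic synthetases and 7 genes of the Atf4 group fell and 6.60% of all genes did. It was 3 without castrated array 1 or 3, 2 without control 2 or 3, and 10 and 9 without estradiol array 1 or 3. Here and below, counts with 1 array left out have no share of all genes beside them and cannot be read as particular to the 40. Psph no longer passed without castrated 1 or 3 or without control 2 or 3 (adjusted p from 0.0625 to 0.0926), nor did Phgdh without control 2 or 3 (adjusted p = 0.052 and 0.055).

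With estradiol in intact rats 6 of the 40 fell and none rose: Psat1, Mthfd2, Psph, Asns, Wars1 and Aars1. The median was -0.41. Every estradiol array lay above every control in 1 of the 40, a count that cannot be read as particular to the 40 without the share of all genes. In 17 every estradiol array was below every control, as in 15.1% of all genes. Without estradiol arrays 1 and 2 the median was -0.09 and 5 fell (Psat1, Mthfd2, Psph, Wars1 and Cars1), while 2.27% of all genes fell. The count was 13 without estradiol 1 and 18 without estradiol 3, and Asns no longer passed without control 2 (adjusted p = 0.0554). With only estradiol and control arrays in the fit 3 passed, and Psph, Asns and Aars1 did not (adjusted p = 0.0611, 0.098 and 0.192).

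With both treatments 5 fell and none rose: Psat1, Mthfd2, Psph, Phgdh and Aars1. The median was -0.20. Every combined array lay above every control in 8 of the 40, of which 5 were mitochondrial synthetases. Without the share of all genes, neither count can be read as particular to the 40 or to that class. In 21 every combined array was below every control, as in 15.8% of all genes. The count was 14, of which 13 fell and Lars2 rose, without estradiol arrays 1 and 2, where 6.90% of all genes fell and 7.61% rose. It was 2 without combined 1 or control 2, 3 without combined 2, combined 3 or control 3, and 11 without estradiol 1. The call of Phgdh held in 10 of 21 alternatives (adjusted p 7.75e-06 to 0.21) and that of Aars1 in 16 (5.19e-05 to 0.12). Psph no longer passed without combined 1 or control 2 (adjusted p = 0.0561 and 0.057). By the F test over all 4 groups 7 of the 40 differed, as did 5.47% of all genes. That count was 3 without control 1, 2 without control 2 or 3, 4 without castrated 1 or 3 or any one combined array, and 15 without estradiol 3.

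**Figure D4:**
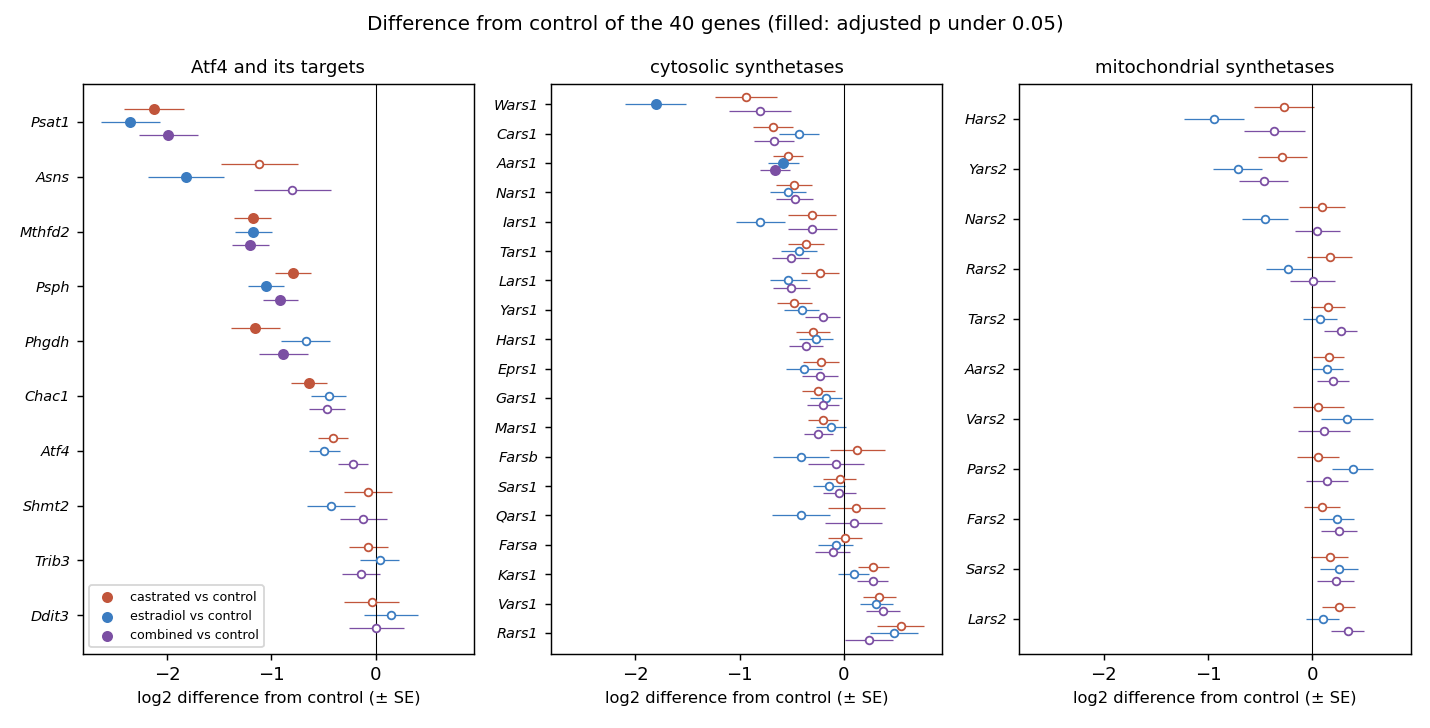
Log2 difference from control with its SE (horizontal axis) for each of the 40 genes, in 3 panels by class; filled points have an adjusted p under 0.05. The filled points are all below 0 and lie mostly in the Atf4 group, and mitochondrial synthetases have none.

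No gene of the 40 passed between treated groups. By limma 0 of the 40 passed for estradiol against castrated, combined against castrated or combined against estradiol, with 3, 0 and 3 at an unadjusted p under 0.05, as were 27.3%, 1.05% and 18.9% of all genes. Across all 14506 genes 0% were called in each of these comparisons. For Psat1 the combined minus castrated difference was 0.14, with a 95% interval from -0.48 to 0.75. For Mthfd2 it was -0.02, from -0.40 to 0.36. Both intervals leave out a change as large as the fall from control. Leaving out estradiol array 3 gave 8 calls for estradiol against castrated and 6 for combined against estradiol.

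The effects of estradiol and castration were not additive in 3 genes. The interaction is the effect of estradiol in castrated rats minus its effect in intact rats. Psat1 had an estradiol effect of 0.14 in castrated rats and -2.35 in intact rats, an interaction of 2.49 ± 0.40 (limma adjusted p = 0.00919). Mthfd2 had -0.02 and -1.17 (interaction 1.15 ± 0.25, adjusted p = 0.0447), and Wars1 0.14 and -1.81 (1.94 ± 0.42, adjusted p = 0.0447). Positive interactions were called in 0.779% of all genes and negative ones, of which the 40 had none, in 0.317%. Psat1 passed in 20 of 20 alternatives (adjusted p 0.000399 to 0.0372), Mthfd2 in 6 (0.00528 to 0.149) and Wars1 in 9 (0.00231 to 0.142). The number of the 40 that passed was 1 without castrated 1, 2 or 3, without combined 1, 2 or 3, without control 2 or 3 and without estradiol 2. It was 5 without estradiol 1 and 6 without estradiol 3. Asns had an interaction of 2.14 ± 0.52 that did not pass (adjusted p = 0.0762).

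Other genes of amino acid supply, from lists chosen with earlier results of these data known, were measured on the same arrays. Of 12 amino acid transporters 2 fell after castration, 4 with estradiol and 1 with both, and none rose. Slc7a11, the cystine importer xCT, had 4.11, 3.74 and 3.99 after castration, 3.50, 3.63 and 4.27 with estradiol and 3.98, 4.06 and 4.43 with both, against 5.47, 6.30 and 5.46 in controls. Every treated array was at least 1 log2 unit below every control. Slc7a11 fell by 1.79, 1.94 and 1.59 (SE 0.25 each, limma adjusted p = 0.00094, 0.000619 and 0.00261). Its treated levels lay below the array medians of 5.53 to 5.76 and no measure of background was used, so these differences may be lower bounds. Slc7a5, the LAT1 transporter of large neutral amino acids, fell by 1.11 and 1.18 after castration and estradiol (adjusted p = 0.0312 and 0.0219). Slc1a4, a carrier of serine, alanine and cysteine, fell by 1.27 with estradiol (adjusted p = 0.0138). When estradiol arrays 1 and 2 were left out, 5 transporters fell and 1 rose after castration and after both treatments, and Slc7a11 alone fell with estradiol. The estradiol difference of Slc7a5 was then -0.69 and that of Slc1a4 -0.92 (adjusted p = 0.231 and 0.155). In that fit 6.60%, 2.27% and 6.90% of all genes fell and 10.003%, 2.78% and 7.61% rose after castration, estradiol and both treatments, the shares against which counts without these arrays are to be read.

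Of 14 genes of amino acid synthesis and one-carbon metabolism 4 fell and 1 rose in each comparison against control. Pycr1, the enzyme that completes proline, had 7.44, 7.57 and 8.02 after castration, 8.15, 7.43 and 8.65 with estradiol and 8.01, 8.65 and 7.46 with both, against 9.59, 9.42 and 9.43 in controls. It fell by 1.80, 1.40 and 1.44 (SE 0.31 each, limma adjusted p = 0.00389, 0.0171 and 0.0184). Aldh18a1, which makes the precursor used by Pycr1, fell by 1.10, 1.33 and 1.16 (SE 0.23 each). Gpt2, the mitochondrial alanine aminotransferase, fell by 1.43, 1.04 and 1.53 (SE 0.14 each), with adjusted p at most 0.000775.

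Mthfd1l, a mitochondrial folate enzyme that acts after Mthfd2 and releases formate, went the other way. It had 8.38, 8.48 and 8.55 after castration, 8.03, 7.70 and 7.81 with estradiol and 8.29, 8.03 and 8.48 with both, against 7.02, 6.80 and 7.02 in controls. It rose by 1.52, 0.90 and 1.32 (SE 0.16 each, limma adjusted p = 8.14e-05, 0.00454 and 0.000259). Every treated array lay above every control. Without estradiol 1 and 2, this list had 6 falls and 2 rises after castration and after both treatments, and 1 of each with estradiol (Gpt2 and Mthfd1l), where Pycr1 and Aldh18a1 differed by -0.83 and -0.90 (adjusted p = 0.234 and 0.0868).

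**Figure D5:**
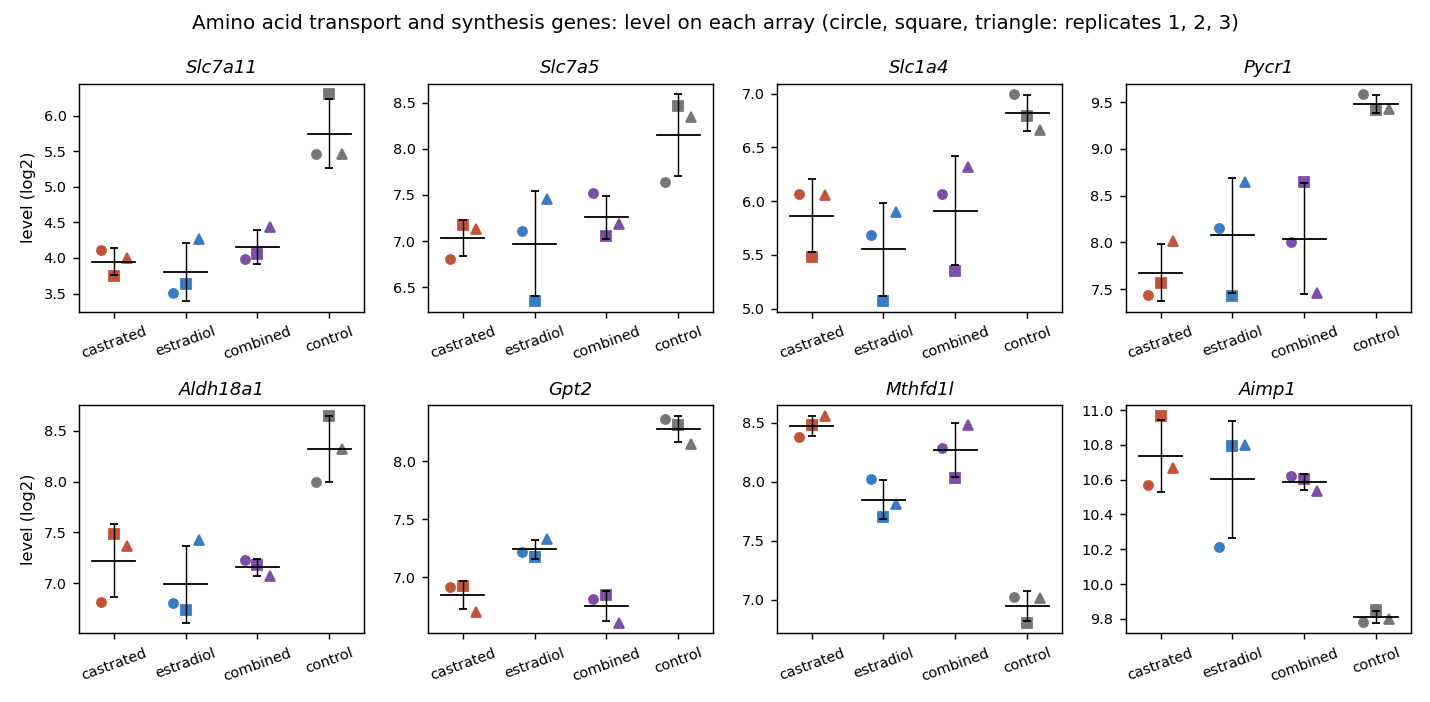
Log2 level (vertical axis) of 8 genes of amino acid transport, synthesis and synthetase assembly on each array, by treatment group; points are arrays, lines the mean and bars the SD of 3 arrays. Slc7a11, Pycr1, Aldh18a1 and Gpt2 have all treated arrays below the controls, and Mthfd1l and Aimp1 have all treated arrays above them.

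Among 5 scaffold proteins and amidotransferase subunits, Aimp1, a scaffold of the multisynthetase complex, had 10.57, 10.97 and 10.67 after castration, 10.21, 10.80 and 10.80 with estradiol and 10.62, 10.60 and 10.53 with both. Controls had 9.78, 9.85 and 9.80, below every treated array. Aimp1 rose by 0.92, 0.79 and 0.77 (SE 0.17 each, limma adjusted p = 0.00712, 0.0164 and 0.0225), whereas none of the 7 synthetases listed with the complex passed with all arrays in the fit. Without estradiol arrays 1 and 2, Lars1 of these 7 fell with both treatments. Gatc, a subunit of the mitochondrial glutaminyl-tRNA amidotransferase, fell by 0.98 with estradiol (adjusted p = 0.0139). Leaving out those arrays, its estradiol difference was -0.55 (adjusted p = 0.092), and it passed after castration and with both treatments (-0.63 and -0.67, adjusted p = 0.00445 and 0.00351).

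The eIF2 kinases, eIF2 subunits and phosphatase subunits that act before Atf4, listed with Eif2b1 to Eif2b5 and Impact, had few calls. Of 15 genes, none passed after castration or both treatments by limma (2 and 3 at an unadjusted p under 0.05), and 2 fell with estradiol: Eif2s2, a subunit of eIF2 (-0.76), and Eif2ak4, the kinase GCN2 that senses uncharged tRNA (-0.60). With estradiol arrays 1 and 2 left out, the estradiol comparison called 0 of 15, while 1 fell and 1 rose after castration and 3 fell with both treatments. Of 19 stress factors and effectors linked to Atf4, 4 fell after castration, 3 with estradiol and 1 with both. Nupr1, a stress-induced chromatin protein, fell by 2.04 ± 0.53 after castration (limma adjusted p = 0.0382), with 8.34, 10.11 and 7.66 against 10.06, 11.04 and 11.13 in controls, so that castrated array 2 overlapped the controls. Herpud1, which serves degradation of misfolded protein, fell by 1.43 after castration and 1.51 with estradiol (adjusted p = 0.0104 and 0.00737). In the fit without estradiol arrays 1 and 2, 6, 2 and 4 of the 19 fell. Herpud1 then differed by -0.71 with estradiol, which did not pass (adjusted p = 0.108), and fell by 0.98 with both treatments (adjusted p = 0.00232). None of 18 translation initiation and elongation factors passed against control by limma (1, 4 and 2 at an unadjusted p under 0.05, as were 16.1%, 30.2% and 14.7% of all genes). The lowest p was that of Eif5a, which differed by -0.77 with estradiol (adjusted p = 0.0744). Without estradiol 1 and 2, 2, 1 and 2 of the 18 rose, where 10.003%, 2.78% and 7.61% of all genes did. Macrophage markers rose beside these falls: 9, 3 and 6 of 11 in castrated, estradiol and combined groups, and 10 of 11 in each without estradiol arrays 1 and 2.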

How the data were processed

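Total RNA from ventral prostate was hybridised to 1-colour expression arrays, 3 per group and 12 in all. The authors' deposited values, 1 per probe set and array, span 0.80 to 13.4 and were taken as log2. Affymetrix Expression Console is named per the submitters' processing notes, with no version. Neither normalization, log base, batch nor scan date is stated in the sources used. The design text speaks of 48 rats.

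Of 29214 probe sets, 15310 had 1 gene symbol, 323 several and 13581 none. Genes with 1 symbol were kept, with the probe set of highest mean, giving 14506 genes. Linear models with 4 group means were fitted with limma 3.58.1 (R 4.3.3; lmFit and eBayes, 8 residual and 5.29 prior degrees of freedom), and p-values were Benjamini-Hochberg adjusted over all genes, with a threshold of 0.05. The fit was tested on simulated data, with the same spread on every array and changes placed in the castrated group only. That setting does not cover arrays that differ in spread, as estradiol arrays 1 and 2 do. Members and gene lists were chosen with earlier results of these data known. Genes named with values on every array passed a test or were named by rule (Atf4, Asns, Ddit3, Trib3, Chac1). From each pathway list up to 3 passing genes of largest difference were named. Shmt2, Cars1, Nars1, Iars1, Kars1, Lars1, Lars2, Rars1, Vars1, Hars2 and Aldh18a1 were named after their values were seen. The median SE was 0.18 for the 40 genes and 0.19 for all genes, and the number of arrays limits the precision. Alternatives were centring, quantile normalization, array weights, the groups compared alone, a replicate block, removal of dim genes, the mean of probe sets, a trended robust prior and removal of arrays. The pathway lists without estradiol arrays 1 and 2 were an alternative chosen after seeing the data. Replicate numbers were taken to pair samples where the deviations of every same-numbered pair correlated above 0.1, which held for estradiol against castrated (0.14, 0.28 and 0.20) and for no other comparison.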

Additional observations from a re-analysis of the deposited data

Results flagged for a closer look

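Psat1, Mthfd2 and Wars1 were picked out because the effect of estradiol differed between castrated and intact rats in a direct test of the interaction. In Psat1 the effect was 0.14 in castrated rats and -2.35 in intact rats, a difference of 2.49 ± 0.40 (log2, limma adjusted p = 0.00919). In Mthfd2 the effects were -0.02 and -1.17, a difference of 1.15 ± 0.25 (limma adjusted p = 0.0447). In Wars1 they were 0.14 and -1.81, a difference of 1.94 ± 0.42 (limma adjusted p = 0.0447). Without estradiol arrays 1 and 2 the difference was 1.85 in Psat1, 1.20 in Wars1 and 0.95 in Mthfd2 (limma adjusted p = 0.0283, 0.0444 and 0.0879). No group of 4 or more samples exists here, so the test for a single outlying sample, which needs 4, was not run. Estradiol arrays 1 and 2 were set apart by their spread over all probe sets.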

How the results depend on the processing

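Psat1 and Mthfd2 passed against control in all 21 alternatives. Counts of the 40 genes for castration, estradiol and both treatments were 11, 3 and 17 with only the groups compared and 24, 13 and 21 with array quality weights. The share of all genes called in these fits is not given here, so the counts cannot be read as particular to the 40. With array medians centred the estradiol count was 10 and the interaction count 1. Without estradiol arrays 1 and 2 the castration count was 13 and the combined count 14. Array weights gave 1 call for estradiol against castrated, 1 for combined against estradiol, 9 interactions and 24 by the F test, and quantile normalization gave 4 by the F test. The estradiol median was -0.53 centred, -0.20 after quantile normalization, -0.29 weighted and -0.0853 without estradiol arrays 1 and 2. Estradiol against castrated had medians of -0.19 centred, 0.12 after quantile normalization and 0.0854 without those arrays. Combined against estradiol had -0.0731 after quantile normalization, 0.17 weighted and -0.0920 without those arrays, and the interaction 0.0844 after quantile normalization and 0.10 without them. The cause was not tested. Leaving out 1 array gave counts of 2 to 10 for castration, 4 to 18 for estradiol, 2 to 11 for both, 0 to 8 for estradiol against castrated, 0 to 6 for combined against estradiol, 1 to 6 for the interaction and 2 to 15 by the F test, and an estradiol median of -0.44 to -0.21. With the replicate block the counts were 4, 7 and 4 against control, 2 for the interaction and 6 by the F test. Chac1 after castration, Phgdh with both treatments and the Mthfd2 interaction then missed the threshold. The deviations of same-numbered samples correlated above 0.1 in all 3 pairs only for estradiol against castrated (0.14 to 0.28), where 0 genes passed with or without the block. In the comparisons against control they correlated at -0.16 to 0.19.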
